A study of Mus musculus with 8 samples.

Results

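Expression of 10 genes of the MHC class I antigen presentation pathway was described in early B cells of WT and Lf-/- mice: H2-K1, H2-D1, B2m, Tap1, Tap2, Tapbp, Psmb8, Psmb9, Psmb10 and Nlrc5. They were chosen by gene symbol from the 52550 genes listed for each library, and each matched 1 row in every library. Pre-pro-B cells (sorted on surface proteins that include AA4.1 and B220) and pro-B cells (sorted as B220+ CD43+ IgM-) had been sorted from bone marrow by flow cytometry, in C57BL/6J WT mice and in age-matched Lf-/- littermates, in which lactoferrin is knocked out, and their RNA was sequenced. There were 7 libraries: pre-pro-B cells gave 2 from WT and 2 from Lf-/- mice, and pro-B cells gave 1 from WT and 2 from Lf-/- mice. The labels also list another sample of WT pro-B cells, not used here. No treatment was given in any group, and the age of the mice is not given in the sources used here.

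MHC class I molecules carry short peptides from proteins made inside a cell to its surface, where CD8 T cells read them. The peptides are cut by the proteasome, which takes up the inducible subunits of the immunoproteasome in many cells of the immune system. The TAP transporter then moves them into the endoplasmic reticulum, where tapasin holds the transporter and an empty class I chain together until a peptide is bound. A class I molecule consists of a heavy chain and the light chain beta-2-microglobulin. Interferon gamma and the transactivator NLRC5 raise the transcription of most of these genes.

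Over both stages, the mean of H2-K1, H2-D1, Psmb8 and Psmb10 was above WT in Lf-/- cells by 0.53 to 0.63 on the log2 scale, the largest differences among the members, where the median was 0.36 for the 9 members and 0.21 for all genes. With median-ratio scaling, which sets libraries equal by the median ratio of their genes, the member median was 0.015. None of the 9 members that could be tested passed a test. Without the single WT pro-B library only pre-pro-B cells inform the difference. H2-K1, H2-D1, Psmb8 and Psmb10 were then at 0.55, 0.37, 0.30 and 0.35. In pre-pro-B cells the members were high in different Lf-/- libraries, H2-K1 and H2-D1 in replicate 1 and Psmb8 and Psmb10 in replicate 2. In pro-B cells all 9 were higher in both Lf-/- libraries than in the single WT library, as were 75.3% of the genes that passed the filter. The ratios Psmb8/Psmb5 and Psmb10/Psmb7 do not depend on the factor by which a library is scaled. They were higher in all 4 Lf-/- libraries than in all 3 WT libraries, while the genotypes overlapped for Psmb9/Psmb6. Of single genes, 9.87% were higher in this way, and the share among other ratios was not computed. The test over 7 libraries was added after the values had been seen and did not account for stage. Its exact permutation p was 0.0571 (0.0857 adjusted) for these 2 ratios, the smallest that 3 libraries against 4 can give. The planned exact permutation test in pre-pro-B cells gave 0.333 for both, the smallest that 2 against 2 can give.

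Values are FPKM, fragment numbers scaled to the transcript length and to the size of the library, so levels can be compared between genes. The libraries were estimated to hold about 10900000 to 15400000 fragments, except Lf-/- pre-pro-B replicate 2, of unknown depth, in which 12172 genes were above 0 (19477 to 20250 elsewhere). Ltf, which encodes lactoferrin, was at 2143 to 2731 FPKM in WT and at 88.2 to 168 FPKM in Lf-/- libraries, without overlap. Ptprc, which encodes the pan-leukocyte protein CD45 and its B220 form, was at 2.41 to 6.41 FPKM. A list of 16 neutrophil granule genes took 25.6% to 53.1% of a library's summed FPKM, least in Lf-/- pre-pro-B replicate 2 and most in the WT pro-B library. All p-values below measure the spread between these libraries, and the number of mice behind each library is unclear, since the labels speak of mice for WT and of a mouse for Lf-/- libraries and the methods of the study give several mice per group.

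Of the 10 genes, 7 lie in the H2 complex on chromosome 17 of GRCm38, between 33915899 and 35267499. Psmb9, Tap1, Psmb8 and Tap2 sit side by side there within 34335 bases, from 34181987 to 34216321. Tapbp (33915899 to 33929292), H2-K1 (33996017 to 34000347, minus strand) and H2-D1 (35262730 to 35267499) lie further apart. B2m is on chromosome 2 (122147686 to 122153083), and Psmb10 (105935735 to 105938444) and Nlrc5 (94434356 to 94527272) are on chromosome 8.

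The 250 bases before the start site of the 3 class I chain genes are shown because they hold the same 4 kinds of short motif, with the first match of each kind in the same order, which the choice of the genes did not use. Sequences are from RefSeq on GRCm38.p6, for H2-K1 from chr17:34000348-34000597 on the minus strand, for H2-D1 from chr17:35262844-35263093 on the plus strand and for B2m from chr2:122147437-122147686 on the plus strand. Capitals mark matches, on either strand, to GGG and CCC separated by 5 bases (the type bound by NF-kB), TTTCNNTT (the type bound by interferon regulatory factors), TGACG (the core of cyclic AMP response elements) and CCAAT (the box bound by NF-Y). No matches overlap. B2m has a further NF-kB type match after the interferon type, and H2-D1 a further CCAAT box. The RefSeq start of H2-D1 lies inside the GENCODE span given above, so its window does too.
H2-K1: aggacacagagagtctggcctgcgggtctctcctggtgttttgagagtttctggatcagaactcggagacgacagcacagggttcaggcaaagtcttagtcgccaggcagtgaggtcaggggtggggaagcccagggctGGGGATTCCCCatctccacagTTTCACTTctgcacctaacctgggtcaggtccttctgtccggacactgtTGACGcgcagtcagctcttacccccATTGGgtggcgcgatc
H2-D1: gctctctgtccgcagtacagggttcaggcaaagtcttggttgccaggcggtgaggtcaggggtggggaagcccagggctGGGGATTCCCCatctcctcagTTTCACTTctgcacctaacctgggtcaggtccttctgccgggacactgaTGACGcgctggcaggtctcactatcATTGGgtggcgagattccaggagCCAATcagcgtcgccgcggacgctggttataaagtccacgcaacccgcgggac
B2m: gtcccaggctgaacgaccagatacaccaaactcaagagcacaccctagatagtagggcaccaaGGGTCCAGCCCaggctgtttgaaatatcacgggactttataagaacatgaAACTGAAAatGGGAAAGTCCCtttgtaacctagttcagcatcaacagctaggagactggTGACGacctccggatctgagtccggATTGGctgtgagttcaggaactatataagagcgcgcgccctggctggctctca

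The H2-K1 and H2-D1 windows were 87.9% identical over 190 aligned bases, and the NF-kB type and interferon type matches had the same letters in both. These motifs were chosen after the sequences had been seen. Among 27025 RefSeq promoters of the same length, 12.1% held the NF-kB type, 21.6% the interferon type, 17.9% the cyclic AMP type and 34.5% the CCAAT box, and 0.13% (35 promoters) held all 4. Of the 8 members with a promoter entry, H2-K1, H2-D1 and B2m held all 4. So did H2-Q4 and H2-T22, 2 of the 13 further class I chains with an entry, and the class II gene H2-Aa. Tap1 and Psmb9, which are read in opposite directions from neighbouring start sites, held all but the interferon type. Their windows (chr17:34187306-34187555 and chr17:34187331-34187580) cover mostly the same bases, and the matches are the same sites read on opposite strands. Tapbp held the CCAAT box alone, and no match was found in the windows of Psmb8 and Psmb10. Tap2 and Nlrc5 had no entry. A match is a description of the letters in the window and does not show that a factor binds there.

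The 10 genes spanned a wide range of levels, in nearly the same order in every library. B2m, the light chain, was the highest, with a mean of 3045 FPKM over the 7 libraries, followed by H2-D1 at 1392, H2-K1 at 439 and Psmb8 at 99.9 FPKM. The ranges of these 4 genes did not overlap with each other. In each library B2m was at or above 99.8% of the genes above 0, and H2-D1 at or above 99.4%. Tapbp (mean 46.4 FPKM), Psmb10 (38.8 FPKM) and Psmb9 (19.7 FPKM) came next, and the ranges of Tapbp and Psmb10 and of Psmb10 and Psmb9 overlapped, although Psmb10 was above Psmb9 in 7 of 7 libraries. Tap2 (8.58 FPKM) and Tap1 (3.35 FPKM), the subunits of the peptide transporter, overlapped, with Tap2 above Tap1 in 5 of 7 libraries. Nlrc5, the transactivator, was lowest, at a mean of 0.531 FPKM. The H2-D1 level was 2.57 to 3.88 times that of H2-K1 in the same library.

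The 10 genes together made up 0.557%, 0.563% and 0.463% of the summed FPKM in the 2 pre-pro-B libraries and the pro-B library of WT mice. In Lf-/- mice it was 0.726% and 0.678% at the pre-pro-B stage, then 0.883% and 0.783% at the pro-B stage. Every Lf-/- library was above every WT library in this share. B2m alone made up 0.275% to 0.377% in WT and 0.405% to 0.494% in Lf-/- libraries, so it accounted for most of the sum. These shares are of a total that includes the neutrophil granule list, at 39.0% to 53.1% in WT and 25.6% to 39.9% in Lf-/- libraries. They therefore depend on the granule genes too, and shares without that list were not compared. In bulk RNA, fewer cells of a type and less RNA per cell cannot be told apart.

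**Figure D1:**
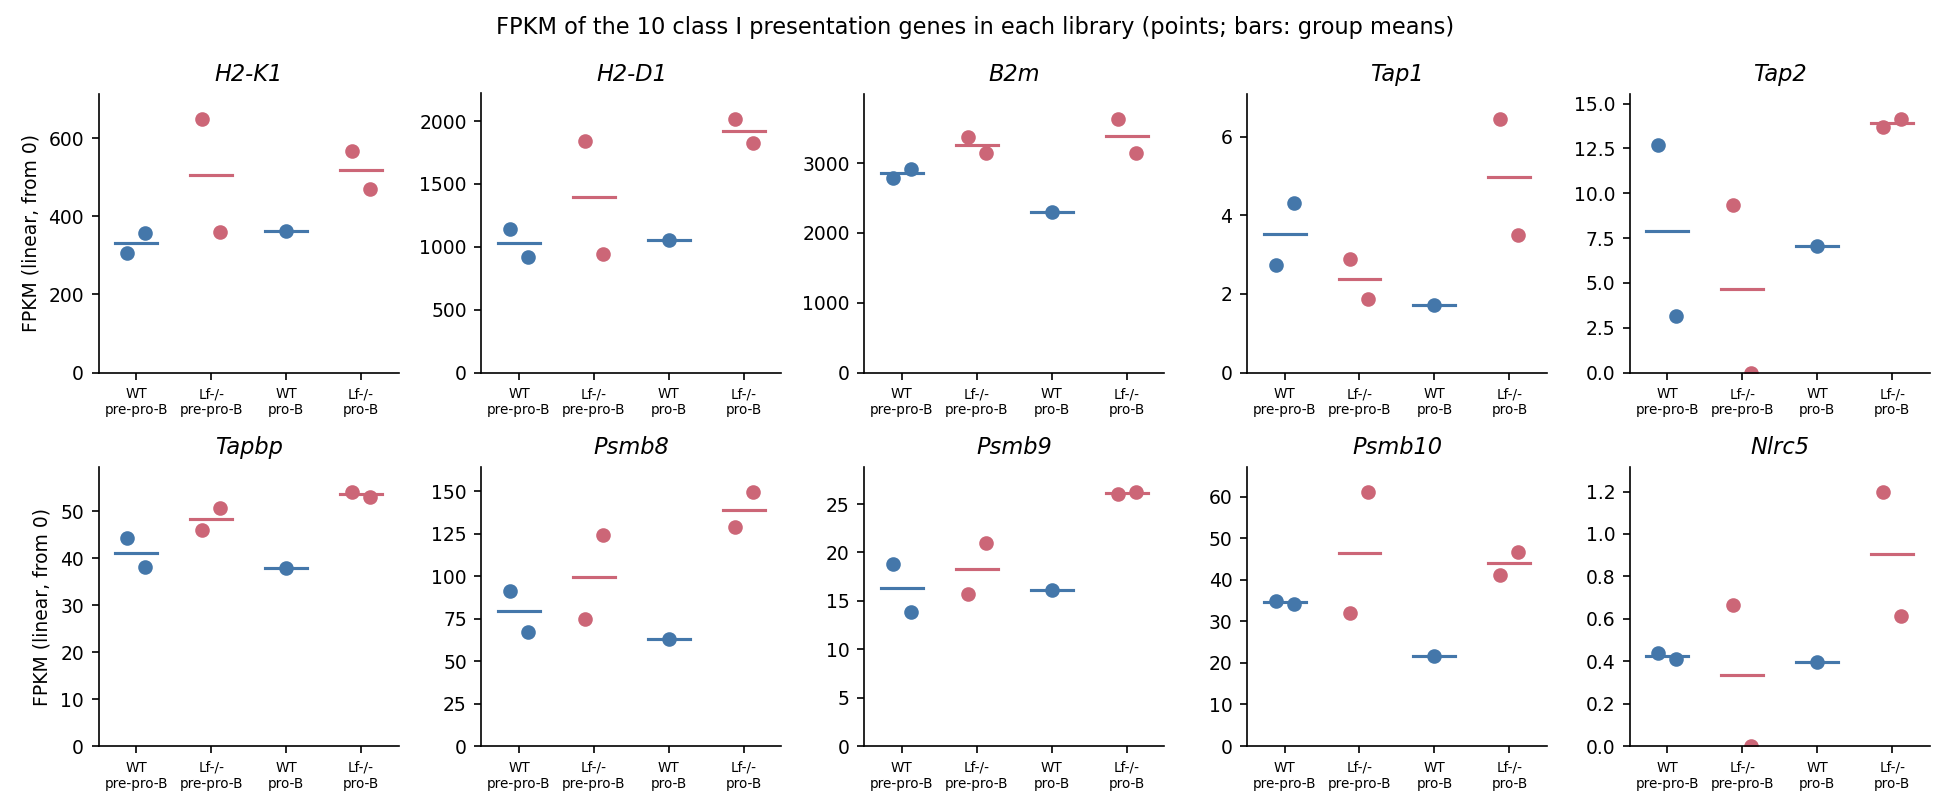
FPKM of each of the 10 genes on a linear axis from 0, with 1 point per library and a bar at the mean of each genotype and stage (WT pro-B is 1 library). B2m and Tapbp are the genes in which all 4 Lf-/- points lie above all 3 WT points, and Tap2 and Nlrc5 are listed at 0 in 1 Lf-/- pre-pro-B library.

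H2-K1 encodes the K heavy chain. It was at 306 and 358 FPKM in WT pre-pro-B, at 649 and 360 FPKM in Lf-/- pre-pro-B, at 364 FPKM in the WT pro-B library and at 567 and 470 FPKM in those of Lf-/- pro-B cells. In pre-pro-B cells the groups did not overlap, but Lf-/- replicate 2 was close to WT replicate 2, and the difference of 0.55 on the log2(FPKM + 1) scale (SE 0.48, adjusted p = 0.941 from limma) was about the size of its error. It was 0.12 without Lf-/- replicate 1 and 0.97 without Lf-/- replicate 2. In pro-B cells the difference was 0.51, with both Lf-/- libraries above the WT library. Over both stages it was 0.53 (SE 0.30, unadjusted p = 0.114, adjusted p = 0.689).

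H2-D1 encodes the D heavy chain. It was at 1141 and 919 FPKM in WT and 1844 and 947 FPKM in Lf-/- libraries of pre-pro-B cells, so that Lf-/- replicate 2 lay between the WT libraries. The WT pro-B library had 1055 FPKM and those of Lf-/- pro-B cells 2017 and 1823 FPKM, a difference of 0.86. The difference was 0.37 (SE 0.52, adjusted p = 0.945) in pre-pro-B cells and 0.57 (SE 0.32, unadjusted p = 0.116, adjusted p = 0.689) over both stages. Without Lf-/- pre-pro-B replicate 2, the lowest of the Lf-/- libraries for H2-D1, the latter was 0.86 (unadjusted p = 0.0184, adjusted p = 0.329 from limma). In that fit 9.62% of all genes passed an unadjusted p of 0.05, compared with 7.17% with no library left out. Without Lf-/- replicate 1 the pre-pro-B difference turned to -0.11.

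B2m was at 2794 and 2923 FPKM in WT pre-pro-B and at 2296 FPKM in WT pro-B cells. It was at 3380 and 3140 FPKM in Lf-/- pre-pro-B libraries and at 3635 and 3145 FPKM in those of Lf-/- pro-B cells. Every Lf-/- library was above every WT library, yet the differences were small, with 0.19 (SE 0.45, adjusted p = 0.959) in pre-pro-B cells, 0.56 at the pro-B stage and 0.34 (SE 0.27, adjusted p = 0.704) over both stages.

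Transcripts of the class I chains resemble each other. Over 1515 aligned bases those of H2-K1 and H2-D1 were 88.4% identical, and H2-D1 matched H2-Q7 with 88.5% over 1114 bases and H2-Q6 with 90.6% over 996 bases, so reads may have been divided between these genes in the authors' counting. B2m lies on the opposite strand of Patl2, which was listed at 0 in all 7 libraries.

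Tap1 encodes a subunit of the peptide transporter. It was at 2.73 and 4.32 FPKM in WT pre-pro-B, at 2.88 and 1.87 FPKM in Lf-/- pre-pro-B, at 1.72 FPKM in the WT pro-B library and at 6.45 and 3.50 FPKM in those of Lf-/- pro-B cells. The lowest level was that of WT pro-B cells and the highest that of Lf-/- pro-B replicate 1, and the pre-pro-B groups overlapped. The difference was -0.42 (SE 0.49, adjusted p = 0.941) in pre-pro-B cells, 1.09 at the pro-B stage and 0.19 (SE 0.42, adjusted p = 0.872) over both. The test of whether the genotype difference differed between the stages gave 1.51 (SE 0.72, unadjusted p = 0.0730, adjusted p = 0.990).

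Tap2 encodes the other subunit. It was at 12.7 and 3.15 FPKM in WT pre-pro-B cells, at 9.32 FPKM in replicate 1 of Lf-/- pre-pro-B cells and listed at 0 in replicate 2, at 7.04 FPKM in the WT pro-B library and at 13.7 and 14.1 FPKM in those of Lf-/- pro-B cells. The pre-pro-B replicates of either genotype were far apart, and the pre-pro-B difference of -1.23 (SE 1.20, adjusted p = 0.941) rests on the library in which it is listed at 0. Without that library it was 0.45. In pro-B cells the difference was 0.89, and over both stages it was -0.38 (SE 0.83, adjusted p = 0.866).

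Tapbp encodes tapasin. It was at 44.3 and 38.2 FPKM in WT pre-pro-B, at 46.1 and 50.8 FPKM in Lf-/- pre-pro-B, at 38.0 FPKM in the WT pro-B library and at 54.1 and 53.2 FPKM in those of Lf-/- pro-B cells. As with B2m, all Lf-/- libraries were above all WT libraries. The differences were 0.23 (SE 0.40, adjusted p = 0.947), 0.49 and, over both stages, 0.33 (SE 0.27, adjusted p = 0.705). Tapbp shares 3422 bases on the same strand with Zbtb22, which was at 0.932 to 9.10 FPKM.

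Psmb8, Psmb9 and Psmb10 encode the catalytic subunits that replace those encoded by Psmb5, Psmb6 and Psmb7 when an immunoproteasome is built. Psmb8 was at 91.4 and 67.3 FPKM in WT pre-pro-B, at 74.8 and 124 FPKM in Lf-/- pre-pro-B, at 63.0 FPKM in the WT pro-B library and at 129 and 149 FPKM in those of Lf-/- pro-B cells. Both Lf-/- pro-B libraries were at least 2-fold above the WT pro-B library, whereas Lf-/- pre-pro-B replicate 1 lay between the WT libraries. The difference was 0.30 (SE 0.46, adjusted p = 0.945) in pre-pro-B cells, 1.13 at the pro-B stage and 0.63 (SE 0.33, unadjusted p = 0.0898, adjusted p = 0.689) over both stages.

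Psmb9 was at 18.9 and 13.8 FPKM in WT pre-pro-B, at 15.7 and 21.0 FPKM in Lf-/- pre-pro-B, at 16.1 FPKM in the WT pro-B library and at 26.0 and 26.2 FPKM in those of Lf-/- pro-B cells. The Lf-/- pro-B libraries were the highest of all, and the pre-pro-B groups overlapped. The differences were 0.16 (SE 0.44, adjusted p = 0.961), 0.66 and 0.36 (SE 0.30, adjusted p = 0.711). Psmb9 shares 212 bases with Tap1 on the opposite strand, and the sources used here do not say whether counting used the strand.

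Psmb10 was at 35.0 and 34.1 FPKM in WT pre-pro-B, at 32.1 and 61.0 FPKM in Lf-/- pre-pro-B, at 21.6 FPKM in the WT pro-B library and at 41.1 and 46.8 FPKM in those of Lf-/- pro-B cells. The WT pre-pro-B libraries were close to each other, and the 2 Lf-/- pre-pro-B libraries fell on either side of them. The differences were 0.35 (SE 0.48, adjusted p = 0.944), 0.99 and 0.60 (SE 0.33, unadjusted p = 0.0985, adjusted p = 0.689).

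Nlrc5 was at 0.438 and 0.410 FPKM in WT pre-pro-B, at 0.396 FPKM in WT pro-B, at 0.665 FPKM in replicate 1 of Lf-/- pre-pro-B cells, then at 1.20 and 0.612 FPKM in those of Lf-/- pro-B cells. Lf-/- pre-pro-B replicate 2 lists it at 0, and the other Lf-/- libraries were above all WT libraries. Because it did not reach 1 FPKM in at least 2 libraries, it was not tested. If all its fragments fell on the longest annotated transcript, these levels rest on an estimated 36.5 to 99.7 fragments.

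In pre-pro-B cells, 9 of the 10 members reached 1 FPKM in 2 or more of the 4 libraries and were tested with limma. None passed an adjusted or an unadjusted p of 0.05, compared with 0% and 2.92% of the 9720 genes tested. The median difference of the 9 was 0.23, and that of all genes was 0.035. H2-K1, B2m and Tapbp were higher in both Lf-/- libraries than in both WT libraries, 3 of 9, compared with 15.5% of all genes. The difference was above 0 for 7 of 9, all but Tap1 and Tap2, compared with 52% of all genes.

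The pair of Lf-/- pre-pro-B libraries differed in which members were high. H2-K1 and H2-D1 were lower in replicate 2 than in replicate 1 by 0.85 and 0.96 on the log2 scale, while Psmb8 and Psmb10 were higher in replicate 2 by 0.72 and 0.91. The 14 genes of the constitutive proteasome core were all higher in replicate 2, with a median of 0.83, as were the 4 tested proteasome activators, with a median of 1.26. Of all genes, 6064 of 10786 were higher in replicate 2, with a median of 0.21. Of 13 further class I chains that passed the filter, 4 were higher in replicate 2. Replicate 2 is the library with the fewest genes above 0, and its part in these values was not tested.

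In pro-B cells there was 1 WT library, so differences are given without a test, and a gene was counted when the difference reached 2-fold with both Lf-/- libraries on the same side of the WT library. Psmb8 and Tap1 reached it, 2 of 9 members, compared with 13.5% of the 10793 genes. Without Lf-/- replicate 1, Tap1 was at 0.73 and Psmb10 at 1.08, so Psmb8 and Psmb10 reached it. Tested with the spread of all 7 libraries in one fit, no member passed an unadjusted p of 0.05. All 9 were higher in both Lf-/- libraries than in the WT library, and so were 75.3% of all genes. The median difference was 0.86 for the members and 0.48 for all genes. The WT pro-B library was also the one in which the neutrophil granule list took the largest share of FPKM, 53.1% compared with 34.8% and 39.9% in the Lf-/- pro-B libraries, and FPKM of all other genes are relative to the same total. When the values were rescaled without that list and Ltf, the median of the members was 0.62 and no member reached 2-fold. With median-ratio scaling, which divides each library by the median ratio of its genes to their geometric mean over libraries, the median was 0.19, the median of all genes was -0.0015, and H2-K1 (-0.16), B2m (-0.11) and Tapbp (-0.17) turned lower in Lf-/- cells. Tap1 (0.61), Psmb8 (0.46) and Psmb10 (0.34) were the largest differences among the members under that scaling.

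**Figure D2:**
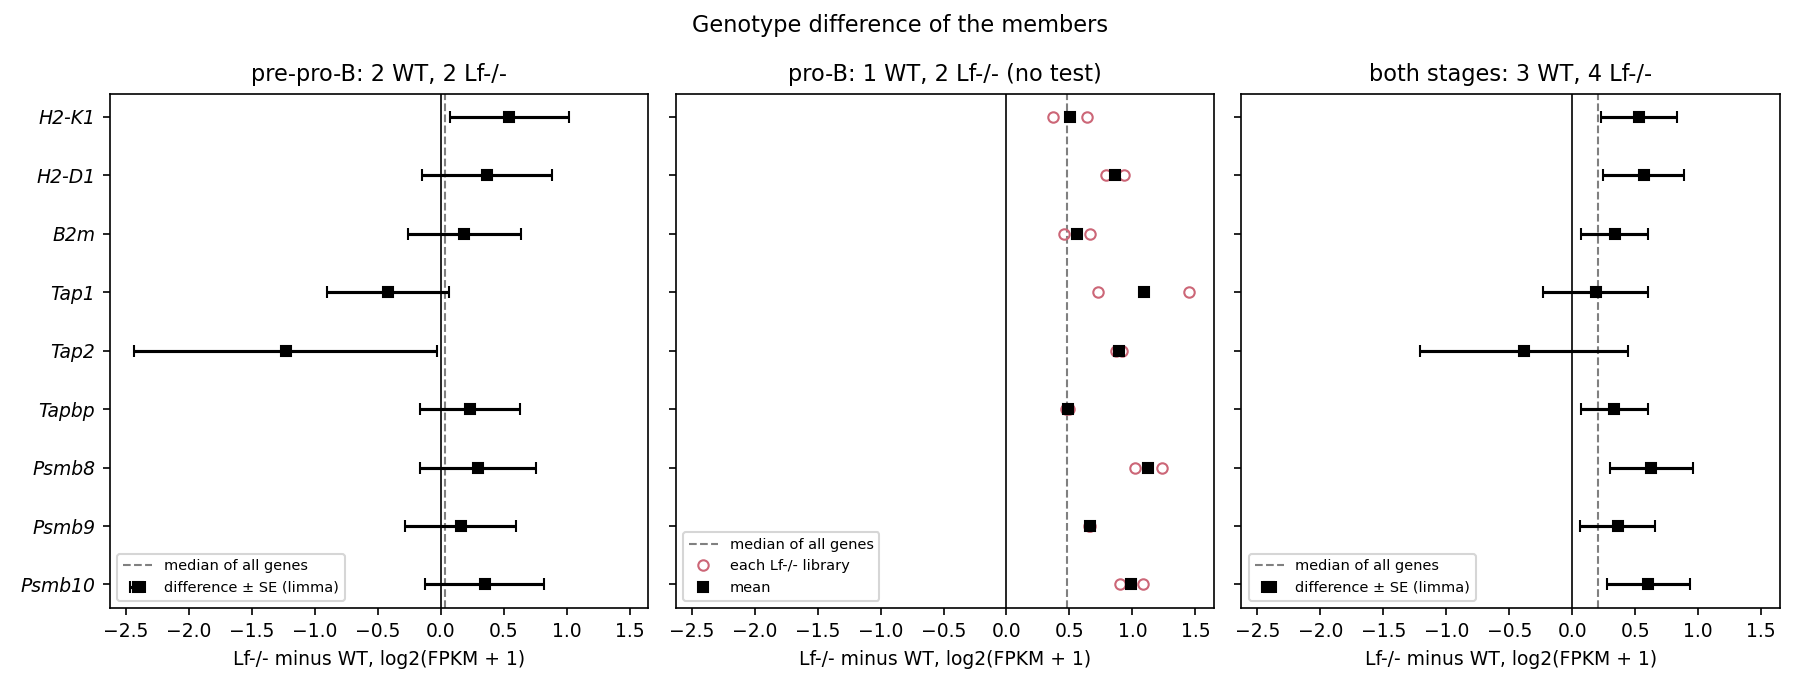
Difference between Lf-/- and WT on the log2(FPKM + 1) scale for the 9 members that passed the filter, in pre-pro-B and pro-B cells and over both stages. Squares are differences with their SE from limma (pro-B: the mean without a test, with open circles for each Lf-/- library against the WT library), and the dashed line is the median of all genes, which is 0.035, 0.48 and 0.21.

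**Figure D3:**
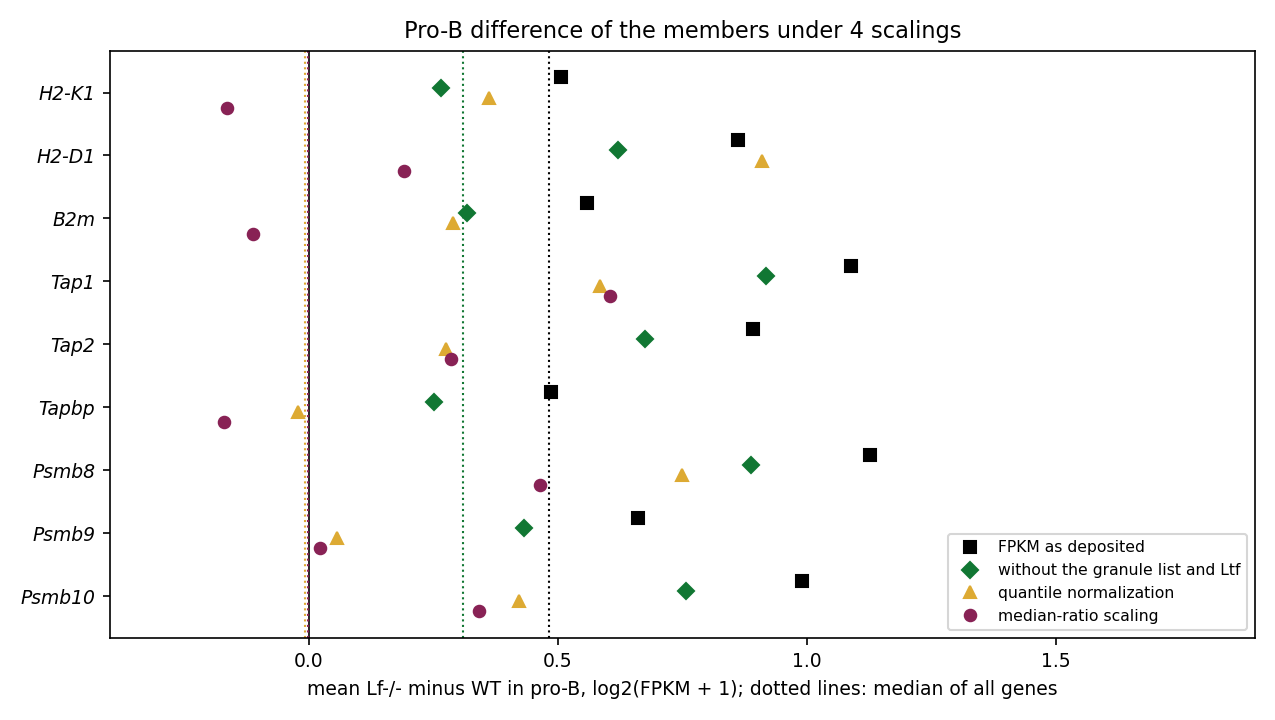
Pro-B difference of the 9 members under 4 ways of scaling the libraries, on the log2(FPKM + 1) scale, with dotted lines at the median of all genes under each scaling. H2-K1, B2m and Tapbp lie below 0 with median-ratio scaling, Tapbp lies at -0.022 with quantile normalization, and H2-D1, Tap1, Tap2, Psmb8, Psmb9 and Psmb10 lie above the median of all genes under all 4.

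Over both stages, with stage as a covariate and 3 WT and 4 Lf-/- libraries, none of the 9 members passed an adjusted p of 0.05, compared with 0.185% (20) of all genes, and none passed an unadjusted p of 0.05, compared with 7.17%. The lowest unadjusted p was that of Psmb8. The median difference was 0.36, compared with 0.21 for all genes, and 8 of 9 were above 0, compared with 66.8%. With median-ratio scaling the medians were 0.015 and -0.059, and 5 of 9 members were above 0. B2m and Tapbp had all Lf-/- libraries above all WT libraries, 2 of 9, compared with 9.87%. Without Lf-/- pre-pro-B replicate 1, Psmb8 (0.89, unadjusted p = 0.00862) and Psmb10 (0.90, unadjusted p = 0.00354) passed the unadjusted threshold, but 28.7% of all genes passed it as well, and their adjusted p were 0.0864 and 0.0738.

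Between the stages, with genotype as a covariate, none of the 9 members passed an unadjusted p of 0.05, compared with 2.41% of all genes, and the lowest adjusted p was 0.947 (0.00927% of all genes passed an adjusted p of 0.05). The pro-B minus pre-pro-B difference ranged from -0.27 (SE 0.33) for Psmb10 to 1.37 (SE 0.83) for Tap2, with a median of 0.19 compared with -0.027 for all genes. In the test of whether the genotype difference differed between the stages, none of the 9 members passed an unadjusted p of 0.05, compared with 2.74% of all genes. The median interaction was 0.50 for the members and 0.45 for all genes.

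The ratio of an inducible to the matching constitutive subunit within a library does not depend on the factor by which that library is scaled. Psmb8/Psmb5 was 0.378 and 0.361, then 0.325, in the pre-pro-B libraries and the pro-B library of WT mice. In Lf-/- mice it was 0.390 and 0.598 at the pre-pro-B stage, then 0.650 and 0.474 at the pro-B stage. Psmb10/Psmb7 was 2.84 and 2.73, then 2.85, in the pre-pro-B libraries and the pro-B library of WT mice. In Lf-/- mice it was 3.21 and 2.94 at the pre-pro-B stage, then 3.80 and 4.27 at the pro-B stage. In both, every Lf-/- library was above every WT library, although Lf-/- pre-pro-B replicate 1 was close to WT in the first and replicate 2 in the second. The share of other gene pairs with such a separation was not computed, so it is not known to be particular to these ratios. Psmb9/Psmb6 was 0.101 to 0.130 in WT and 0.103 to 0.152 in Lf-/- libraries, and the groups overlapped.

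In pre-pro-B cells the log2 ratio was higher in Lf-/- by 0.39 for Psmb8/Psmb5, 0.056 for Psmb9/Psmb6 and 0.14 for Psmb10/Psmb7, with an exact two-sided permutation p of 0.333, 0.667 and 0.333, where 0.333 is the smallest p that 2 libraries against 2 can give. Over all 7 libraries, a comparison added after the values had been seen, the log2 ratio was higher by 0.55 for Psmb8/Psmb5 and 0.33 for Psmb10/Psmb7, each with an exact two-sided permutation p of 0.0571 (0.0857 adjusted over the 3 ratios), which is the smallest that 3 libraries against 4 can give. For Psmb9/Psmb6 it was 0.14 (exact p = 0.457). This permutation took the libraries as independent and did not keep the stages apart, which are not balanced between the genotypes. Libraries of both stages may come from the same mice, so these p-values do not measure the genotype alone. In pro-B cells, with 1 WT library, the log2 ratio was higher in Lf-/- by 0.77 for Psmb8/Psmb5, 0.10 for Psmb9/Psmb6 and 0.50 for Psmb10/Psmb7. The denominators themselves had differences of 0.094 (Psmb5), 0.30 (Psmb6) and 0.31 (Psmb7) over both stages, none of which passed an unadjusted p of 0.05.

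**Figure D4:**
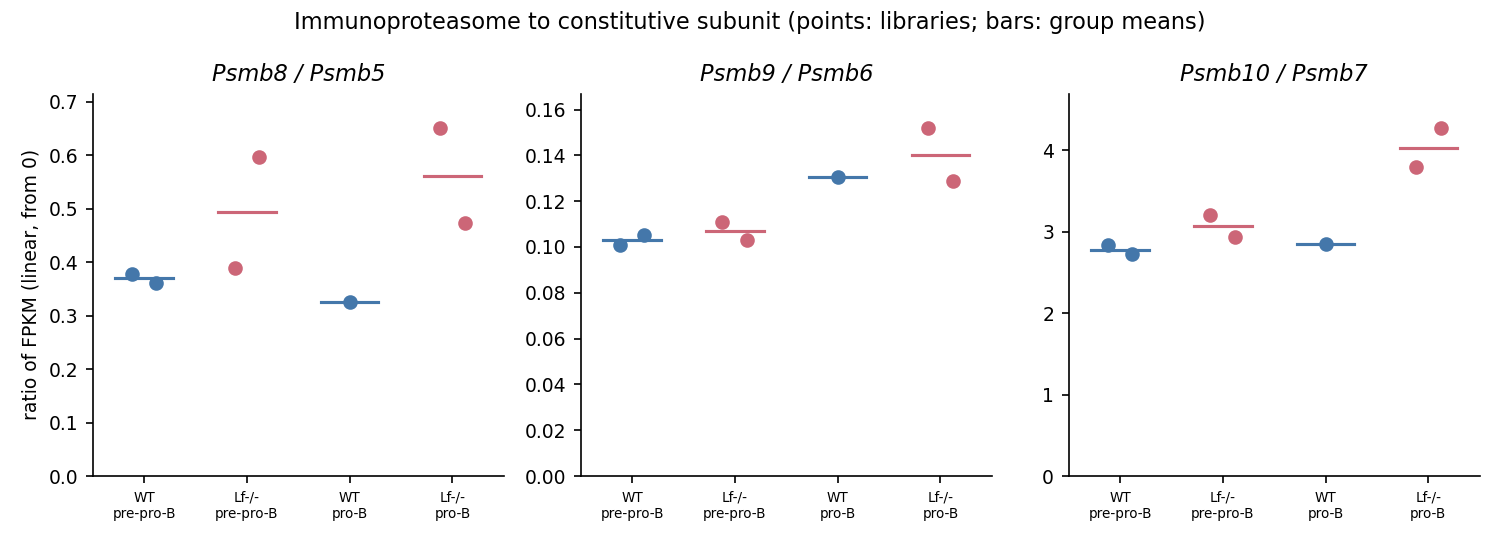
Ratio of the FPKM of an inducible proteasome subunit to that of the constitutive subunit it replaces, on a linear axis from 0, with 1 point per library and a bar at the group mean. For Psmb8/Psmb5 and Psmb10/Psmb7 all 4 Lf-/- points are above all 3 WT points, and for Psmb9/Psmb6 the genotypes overlap.

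Of 60 further genes of the pathway, 53 passed the filter over the 7 libraries. Over both stages 5 of them passed an unadjusted p of 0.05, all higher in Lf-/- cells, compared with 6.48% of all genes higher and 0.695% lower, and none passed the adjusted threshold. They were the class I chains H2-Q6, H2-Q7 and H2-M3, the last of which presents formylated peptides, and the transcription factors Irf1, which acts downstream of interferon gamma, and Irf8, which acts in B and myeloid cells. The constitutive proteasome core had 0 of 14 past the unadjusted threshold, with a median of 0.31, the proteasome activators 0 of 4 (0.54), the chaperones and trimming enzyme of the endoplasmic reticulum 0 of 6 (0.21), the regulators 2 of 16 (0.50) and the further class I chains 3 of 13 (0.59).

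H2-Q7 was at 14.8 and 17.0 FPKM in WT pre-pro-B, at 20.4 FPKM in WT pro-B, at 43.2 and 29.5 FPKM in Lf-/- pre-pro-B libraries and at 49.3 and 43.2 FPKM in those of Lf-/- pro-B cells. The genotypes did not overlap, and the difference over both stages was 1.13 (SE 0.28, adjusted p = 0.287). H2-M3 was at 9.68 to 16.0 FPKM in WT and at 21.4 to 35.1 FPKM in Lf-/- libraries, also without overlap (1.11, SE 0.32, adjusted p = 0.409). H2-Q6 was at 15.0 to 22.96 FPKM in WT libraries, while those of Lf-/- cells had 91.5, 16.9, 68.4 and 44.0 FPKM, with Lf-/- pre-pro-B replicate 2 among the WT values, a difference of 1.24 (SE 0.54, adjusted p = 0.689). With single libraries left out, the difference ranged from 0.74 to 1.93. It was highest without Lf-/- pre-pro-B replicate 2, the lowest of the Lf-/- libraries for H2-Q6.

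Irf8 was at 16.1 to 18.8 FPKM in WT and at 23.7 to 57.6 FPKM in Lf-/- libraries, without overlap, a difference of 1.20 (SE 0.36, adjusted p = 0.418). Irf1 was at 3.57 to 8.05 FPKM in WT and at 8.53 to 22.1 FPKM in Lf-/- libraries (1.13, SE 0.38, adjusted p = 0.530). For both the highest level was that of Lf-/- pre-pro-B replicate 2. In pre-pro-B cells alone, H2-Q7 rose and Hfe, a class I-like regulator of iron uptake, fell at an unadjusted p of 0.05 (Hfe is listed at 0 in Lf-/- replicate 2), which 2% and 0.926% of all genes passed in those directions, and between the stages H2-Q10 was higher in pro-B cells at that threshold, as were 1.25% of all genes. Hfe and H2-Q10 are named after their values were seen. In pro-B cells 11 of 53 genes were at least 2-fold higher in Lf-/- cells and none lower, compared with 12.4% and 1.12% of all genes.

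**Figure D5:**
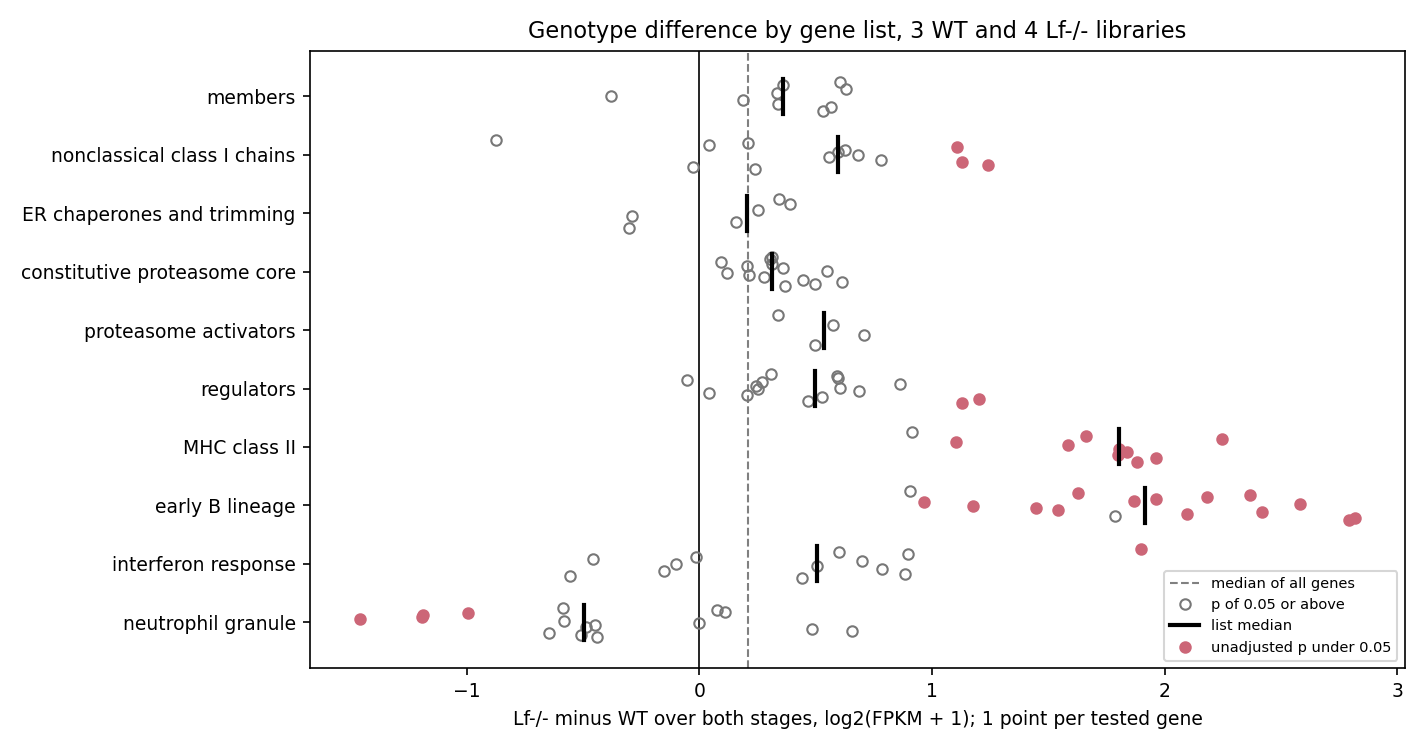
Difference between Lf-/- and WT over both stages for each tested gene, by list, on the log2(FPKM + 1) scale, with filled points for an unadjusted p under 0.05, a bar at the list median and a dashed line at the median of all genes. The member points lie between -0.38 (Tap2) and 0.63 (Psmb8), mostly below those of the MHC class II and early B lineage lists, whose medians are 1.80 and 1.92.

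Markers of B cells and of MHC class II moved with the genotype as well. Of the MHC class II list, 9 of 10 genes passed the unadjusted threshold over both stages, all higher in Lf-/- cells, with summed levels of 1256 to 1867 FPKM in WT and 4773 to 6363 FPKM in Lf-/- libraries and no gene at 0. Of the early B lineage list, 14 of 16 tested genes passed it, with summed levels of 240 to 653 FPKM in WT and 1665 to 3696 FPKM in Lf-/- libraries. Rag1 was listed at 0 in the WT pro-B library and Rag2 in Lf-/- pre-pro-B replicate 2. The mature B list had 7 of 8 past it and the plasmacytoid dendritic list 3 of 6, all higher. The neutrophil granule list had 4 of 16 past it, all lower, the monocyte and macrophage list 2 of 11 (1 higher and 1 lower), the T and NK list 1 of 9 (lower) and the erythroid list 0 of 7, where 6.48% of all genes were past it and higher and 0.695% lower. The summed interferon response list was at 33.5 to 47.8 FPKM in WT and at 50.6 to 167 FPKM in Lf-/- libraries, with 7 of its 18 genes at 0 in Lf-/- pre-pro-B replicate 2. Without Bst2, named after its values were seen, the sums were 17.4 to 32.4 and 24.9 to 62.6 FPKM and overlapped. Of this list, 1 of 13 tested genes passed the unadjusted threshold. The part of these lists in the differences of the members was not tested.

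Among 10635 genes outside these lists, Hikeshi, Psmc5, Galnt7 and 4833420G17Rik were among the 5 whose profile over the 7 libraries was nearest to the median profile of the members. Likeness was measured as the root mean square difference between log2(FPKM + 1) values centred on each gene's mean, which was 0.079 to 0.081 for these 4. Psmc5, a subunit of the proteasome cap, was at 51.0 to 58.8 FPKM in WT and at 59.2 to 87.1 FPKM in Lf-/- libraries. The median profile had a range of 0.75 from the lowest library, WT pro-B, to the highest, Lf-/- pro-B replicate 1. Of the members, Tapbp (0.094) and Psmb9 (0.14) were closest to it, and Tap2 (1.26) was farthest.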

How the data were processed

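RNA had been sequenced on a NovaSeq instrument and normalized by a service provider. The submitters' processing notes name TopHat, Cufflinks, HTSeq, DESeq and GRCm38, without versions or roles. The authors deposited 1 value per gene and library, read as FPKM from the values, since no header names the unit. Sums differ between libraries, and in 6 of 7 low values times transcript length gather at even steps. In genes with 1 transcript of 800 bases or more, 4.55% to 11.3% of these low values lay within 1% of the first step. The depths are estimates from that step. Genes were matched to GENCODE M21 by Ensembl identifier (52403 of 52550). Groups came from the labels. The members and all gene lists were chosen with earlier results of these data known.

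Values were transformed to log2(FPKM + 1), which understates the change of low genes. Genes that reached 1 FPKM in 2 or more libraries (of the 4 in pre-pro-B cells, of the 7 otherwise) were fitted with limma 3.58.1 in R 4.3.3, allowing the variance to follow the mean, two-sided, with Benjamini-Hochberg adjustment over all genes tested. In pro-B cells differences were given without a test, except in an alternative fit of all 7 libraries. Ratios were compared with exact permutation tests. Named beyond the members were at most 6 pathway genes with the largest difference over both stages at an unadjusted p under 0.05, Psmb5, Psmb6 and Psmb7, the 5 genes nearest in profile (1 of them is not reported here), Ltf and Ptprc. Patl2 and Zbtb22 were named as overlapping genes, and Hfe, H2-Q10, Rag1, Rag2, Bst2, H2-Q4, H2-T22 and H2-Aa after their values or sequences were seen. Sequences were read from RefSeq tables on GRCm38.p6 and transcripts compared with blastn 2.17.0 (Python 3.11.15). The fits were tested on simulated data, with 200 genes changed by 2 on the log2 scale at the spread of these libraries. Of these, 0% passed an adjusted p of 0.05 in pre-pro-B cells and 0% for the difference between stages in the genotype effect. Over both stages 56% passed it, and between the stages 54%. A lack of adjusted calls in the first 2 comparisons therefore does not show a lack of change. Alternatives were other scalings, filters, a pseudocount of 0.1, samples and blocks, and each replicate left out.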

Additional observations from a re-analysis of the deposited data

How the results depend on the processing

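Of the 9 tested members, none passed an adjusted p of 0.05 in any comparison under any alternative run, except Tap2 in pre-pro-B cells without Lf-/- replicate 1 (-2.91, adjusted p = 0.0383). That fit has 1 Lf-/- library, which is assumed to vary like the WT libraries and lists Tap2 at 0, and 3338 of its 9143 genes passed the adjusted threshold, so the call says nothing particular to Tap2. The median of the members kept its sign throughout. Counts of genes below are at an unadjusted p of 0.05, or 2-fold in pro-B cells. The number of genes tested changes with the filter. Without a filter, the count in pre-pro-B cells was 2.67% of the genes tested, compared with 2.92% in the main run. When libraries were left out, the share of all genes called was 4.08% to 28.7% over both stages and 1.33% to 16.7% between the stages. The causes of changed values were not tested.

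In pre-pro-B cells (284 genes, member median 0.23), the count was 441 with quantile normalization, 649 without a filter, 518 with all 7 libraries in one fit, and 140 (without WT replicate 2) to 4416 (without Lf-/- replicate 1), with 753 without Lf-/- replicate 2 and 177 without WT replicate 1. Leaving out libraries, each time with 1 library left in a group, gave medians of 0.13 to 0.37. Psmb9 turned to -0.0032 with median-ratio scaling, -0.017 with quantile normalization, -0.052 without WT replicate 2 and -0.041 without Lf-/- replicate 2. Without Lf-/- replicate 2, Psmb8 turned to -0.066, Psmb10 to -0.11, Psmb7 to -0.29, Psmb6 to -0.15 and Tap2 to 0.45. Without Lf-/- replicate 1, H2-D1 turned to -0.11 and H2-Q6 to -0.32. Psmb6 was -0.059 with median-ratio scaling, -0.0042 without the granule list and Ltf and -0.14 without WT replicate 2, and Psmb5 was 0.099 without WT replicate 1. Leaving out single libraries, the highest values of the members and genes that turned were 0.66 for Psmb8, 0.37 for Psmb9, 0.80 for Psmb10, 0.85 for H2-D1, 2.05 for H2-Q6, 0.37 for Psmb6 and 0.70 for Psmb7, and the lowest were -2.91 for Tap2 and -0.27 for Psmb5.

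In pro-B cells (1462 genes, median 0.86, 2 members), the count, median and members past the threshold were 818, 0.19 and 0 with median-ratio scaling, 753, 0.36 and 0 with quantile normalization, and 1013, 0.62 and 0 without the granule list and Ltf. With a pseudocount of 0.1 the count was 2853, and tested with all 7 libraries in one fit 467 genes and 0 members passed. Leaving out libraries gave 1371 to 2071 genes, medians of 0.73 to 0.87 and 2 members, which were Psmb8 and Psmb10 without Lf-/- replicate 1 and Psmb8 and Tap1 without replicate 2.

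Over both stages (774 genes, median 0.36), the median was 0.015 with median-ratio scaling, where B2m (-0.026), Tap1 (-0.064), Tapbp (-0.022), Psmb5 (-0.27), Psmb6 (-0.058) and Psmb7 (-0.022) turned negative. Tap1 was -0.0012 and Psmb7 -0.045 with quantile normalization, and Psmb5 -0.071 without the granule list and Ltf. Leaving out libraries gave 425 to 3033 genes (425 without Lf-/- pro-B replicate 1, 434 and 482 without WT pre-pro-B replicates 2 and 1, 3033 without Lf-/- pre-pro-B replicate 1), medians of 0.23 to 0.47 and 0 to 2 members. Tap1 turned to -0.42 without the WT pro-B library and -0.037 without Lf-/- pro-B replicate 1, Tap2 to 0.26 and 0.67 without WT pre-pro-B replicate 1 and Lf-/- pre-pro-B replicate 2 and to 0.069 with means per mouse label, and Psmb5 to -0.087 and -0.048 without the WT pro-B library and Lf-/- pro-B replicate 2. Over these left-out libraries Tap1 reached 0.46 and Psmb5 0.23, and Tap2 fell to -1.23. Values without the WT pro-B library are the pre-pro-B differences, among them the -1.23 of Tap2.

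Between the stages (260 genes, 2.41% of those tested, median 0.19), the count was 626 (2.28%) without a filter and 156 (2.34%) with 1 FPKM in every library. With quantile normalization the median was 0.39 and 1 member, H2-D1, passed, as did 3.59% of all genes. Leaving out libraries gave 139 (without Lf-/- pro-B replicate 2) to 1763 genes (without Lf-/- pre-pro-B replicate 1), with 150 without Lf-/- pro-B replicate 1 and 616 without the WT pro-B library, medians of 0.047 to 0.50 and 0 to 1 members. B2m turned to 0.017 with median-ratio scaling, 0.13 without the granule list and Ltf and 0.053 without the WT pro-B library, H2-K1 to -0.097 and Tap1 to -0.066 without Lf-/- pre-pro-B replicate 2, Tap1 to -0.14 without Lf-/- pro-B replicate 1, and Psmb8 to -0.077 and Tapbp to -0.018 without Lf-/- pre-pro-B replicate 1. Over these left-out libraries the highest were 0.33 for H2-K1, 0.52 for Psmb8, 0.80 for Tap1 and 0.14 for Tapbp, and the lowest for B2m was -0.18.

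For the difference between stages in the genotype effect (296 genes, 2.74% of those tested, median 0.50), the count was 139 with median-ratio scaling and 195 with a pseudocount of 0.1. It was 1608 (5.86%) without a filter. With 1 FPKM in every library it was 152 (2.28%), and 1 member, Tap1, passed. The median was 0.049 with median-ratio scaling and 0.17 with quantile normalization, where B2m was -0.11 and -0.14 and Tapbp -0.21 and -0.15. Leaving out libraries gave 90 (without Lf-/- pro-B replicate 1) to 2920 genes (without Lf-/- pre-pro-B replicate 1), with 1635 without Lf-/- pre-pro-B replicate 2, 126 and 106 without WT pre-pro-B replicates 1 and 2 and 114 without Lf-/- pro-B replicate 2, medians of 0.40 to 0.66 and 0 to 2 members. H2-K1 was 0.072 without WT pre-pro-B replicate 1, 0.38 without Lf-/- pre-pro-B replicate 1 and 0.095 without Lf-/- pro-B replicate 2, and without replicate 2 of Lf-/- pre-pro-B cells it was lowest, at -0.46. The log2 ratio difference in pre-pro-B cells ranged from 0.078 to 0.69 for Psmb8/Psmb5, 0.0043 to 0.11 for Psmb9/Psmb6 and 0.080 to 0.21 for Psmb10/Psmb7.

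With the replicate number as a block, 532 genes passed in pre-pro-B cells, 635 over both stages and 403 between the stages, and 0 members passed. The main fits did not take the numbers to pair the samples. Across genes, differences between replicates 1 and 2 correlated by 0.039 between the genotypes in pre-pro-B cells. Between the stages in Lf-/- cells they correlated by -0.013. Both values use the Lf-/- pre-pro-B pair. Its median absolute log2 difference was 0.88, compared with 0.32 for the Lf-/- pro-B pair and 0.26 for the WT pre-pro-B pair. Because of that pair, the correlations cannot decide whether libraries with the same number come from the same mice. For Lf-/- pre-pro-B replicate 2 the depth is unknown, and for Nlrc5 the depth limits every value.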
